A study of Mus musculus with 3 samples.

Results

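The genes described here are the T-box transcription factor genes Tbx2, Tbx3, Tbx4, Tbx5, Tbx15 and Tbx18 and the homeobox gene Pitx1, examined in chromatin of the mouse distal forelimb. They are 7 of the 22367 protein-coding genes of the annotation, and were taken by name. A peak was counted for a gene when it overlapped the gene or lay within 200 kb of its start. By this rule the genes took 64 of 20479 RNAP2 peaks and 24 of 10634 Med12 peaks. The genes were set side by side as the forelimb gene Tbx5, the hindlimb genes Tbx4 and Pitx1, and the other 4 genes.

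Binding of RNA polymerase II (RNAP2) and of the Mediator subunit Med12 was mapped by chromatin immunoprecipitation and sequencing (ChIP-seq) in cells of dissected distal forelimbs of wild-type mouse embryos at E12.5. There were 3 samples, namely RNAP2, Med12 and input, and a peak list was used for 2 of them. Each antibody had 1 library, so no value below has a replicate error and no difference was tested. No hindlimb sample was used, and the hindlimb genes were therefore read in forelimb chromatin alone.

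T-box proteins bind DNA through a shared domain and act as activators or repressors of transcription. Tbx5 is expressed in the forelimb bud and is needed for it to form, whereas Tbx4, and Pitx1 upstream of it, belong to the hindlimb bud. Tbx2 and Tbx3 encode related repressors that are expressed along the limb margins, and Tbx15 and Tbx18 are related genes of the limb and trunk mesenchyme. Tbx2 and Tbx4 are neighbours on one chromosome, and so are Tbx3 and Tbx5. Binding of RNAP2 together with Mediator away from a gene start is a property of active enhancers. To choose candidate enhancers away from promoters, the study took sites with RNAP2 and at least 1 other mark. It also took sites with both the co-activator p300 and the histone mark H3K27Ac.

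The sequences below are those at which the lists met. For each gene that had one, the first lines give the 300 bases around the centre of the Med12 peak with the highest score among those that overlapped an RNAP2 peak away from any annotated start. The sites inside the RNAP2 peaks over the starts of Tbx5 and Tbx18 were added after their values were seen. All are from mm9, on the plus strand, and CG dinucleotides are in capitals. Here and below, intergenic means outside the genes of the annotation used, GENCODE vM1.
Tbx5 and Tbx3, intergenic (chr5:120270474-120270773): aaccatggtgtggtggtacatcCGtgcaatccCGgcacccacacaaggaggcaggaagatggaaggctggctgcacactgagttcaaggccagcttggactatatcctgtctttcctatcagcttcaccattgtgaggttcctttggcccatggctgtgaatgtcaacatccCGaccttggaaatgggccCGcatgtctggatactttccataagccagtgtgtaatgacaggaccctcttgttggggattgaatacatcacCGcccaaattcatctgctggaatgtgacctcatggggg
Tbx4 and Tbx2, intron of Bcas3 (chr11:85527019-85527318): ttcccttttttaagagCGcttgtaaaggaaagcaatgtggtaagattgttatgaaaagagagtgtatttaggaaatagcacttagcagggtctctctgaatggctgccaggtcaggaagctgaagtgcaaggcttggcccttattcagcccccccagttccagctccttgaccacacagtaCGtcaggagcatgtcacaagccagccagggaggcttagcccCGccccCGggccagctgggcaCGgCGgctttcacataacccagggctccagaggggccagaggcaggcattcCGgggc
Tbx15, intron (chr3:99052676-99052975): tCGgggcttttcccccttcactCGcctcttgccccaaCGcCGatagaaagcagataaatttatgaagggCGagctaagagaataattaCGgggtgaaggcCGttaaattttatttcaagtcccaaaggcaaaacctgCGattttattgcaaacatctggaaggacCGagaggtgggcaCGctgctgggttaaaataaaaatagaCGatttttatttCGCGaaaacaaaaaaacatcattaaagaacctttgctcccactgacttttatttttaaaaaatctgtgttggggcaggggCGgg
Tbx18, intron (chr9:87605166-87605465): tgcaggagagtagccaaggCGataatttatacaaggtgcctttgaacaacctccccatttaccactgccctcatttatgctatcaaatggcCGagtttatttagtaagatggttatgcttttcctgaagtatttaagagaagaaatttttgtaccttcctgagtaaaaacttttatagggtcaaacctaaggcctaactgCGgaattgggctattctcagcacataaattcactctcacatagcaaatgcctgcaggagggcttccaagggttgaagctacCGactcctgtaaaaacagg
Tbx5, inside the peak over the start (chr5:120290877-120291176): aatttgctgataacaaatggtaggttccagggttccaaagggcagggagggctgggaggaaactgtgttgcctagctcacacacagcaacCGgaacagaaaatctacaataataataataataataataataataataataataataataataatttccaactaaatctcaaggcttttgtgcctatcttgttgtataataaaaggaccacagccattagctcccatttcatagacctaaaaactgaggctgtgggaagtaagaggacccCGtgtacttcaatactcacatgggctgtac
Tbx18, inside the peak over the start (chr9:87622922-87623221): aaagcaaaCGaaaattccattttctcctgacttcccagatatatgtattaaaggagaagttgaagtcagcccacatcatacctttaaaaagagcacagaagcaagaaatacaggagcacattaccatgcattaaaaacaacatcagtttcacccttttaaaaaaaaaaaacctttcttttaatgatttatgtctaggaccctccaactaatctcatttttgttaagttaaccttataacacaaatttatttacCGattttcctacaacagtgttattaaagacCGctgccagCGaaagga
With low-complexity bases masked, none of these 6 stretches aligned elsewhere in mm9 over at least 50 bp at 90% identity or more. The GC content ran from 33.7% at the start-peak site of Tbx18 to 55.7% at the Bcas3 intron, and the number of CG dinucleotides from 2 at the start-peak site of Tbx5 to 14 at Tbx15.

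The 250 bases upstream of a start are given for an unoccupied and an occupied gene. They are RefSeq promoters of GRCm38.p6, on the strand of the gene, which were found by exact match before the mm9 starts at 85710267 (Tbx4) and 87626095 (Tbx18). The RefSeq table held promoters for 2 of the 7 genes.
Tbx4, plus strand: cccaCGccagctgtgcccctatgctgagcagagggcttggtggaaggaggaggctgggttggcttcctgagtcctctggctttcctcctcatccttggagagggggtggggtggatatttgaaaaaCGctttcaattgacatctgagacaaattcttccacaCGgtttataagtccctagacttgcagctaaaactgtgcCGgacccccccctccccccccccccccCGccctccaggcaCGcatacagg
Tbx18, minus strand: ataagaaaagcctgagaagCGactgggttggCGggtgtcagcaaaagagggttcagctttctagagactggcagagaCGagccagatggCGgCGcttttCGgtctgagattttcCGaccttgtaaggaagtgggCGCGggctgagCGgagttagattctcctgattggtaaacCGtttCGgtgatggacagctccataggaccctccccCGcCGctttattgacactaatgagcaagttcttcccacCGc
The Tbx4 stretch has 6 CG dinucleotides and 58.4% GC, and the Tbx18 stretch has 15 and 54.0%. The nearest RNAP2 peak to this Tbx4 start was 51689 bp away, whereas the Tbx18 start lay inside an RNAP2 peak.

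Tbx5 had 24 RNAP2 peaks and 5 Med12 peaks. Tbx4 had 9 and 5, and Pitx1 had 5 and 2. Among the other genes, Tbx3 had 21 and 5, Tbx15 had 16 and 6, Tbx2 had 10 and 6, and Tbx18 had 8 and 5. A protein-coding gene had a median of 4 RNAP2 peaks and 1 Med12 peak by the same rule, with 95th percentiles of 15 and 5. Tbx5, Tbx3 and Tbx15 were above that RNAP2 value, and Pitx1 was close to the median in both lists. As many RNAP2 peaks as at Tbx5 were found at 0.724% of protein-coding genes, and as many away from starts (22) at 0.188%. The 22 were counted with GENCODE vM1 starts, and a RefSeq start of a noncoding gene, given below, would lower that count. Some neighbouring peaks nearly touch, as where a peak ends at 120257159 and the next starts at 120257224. A count of peaks is therefore not a count of separate sites.

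**Figure D1:**
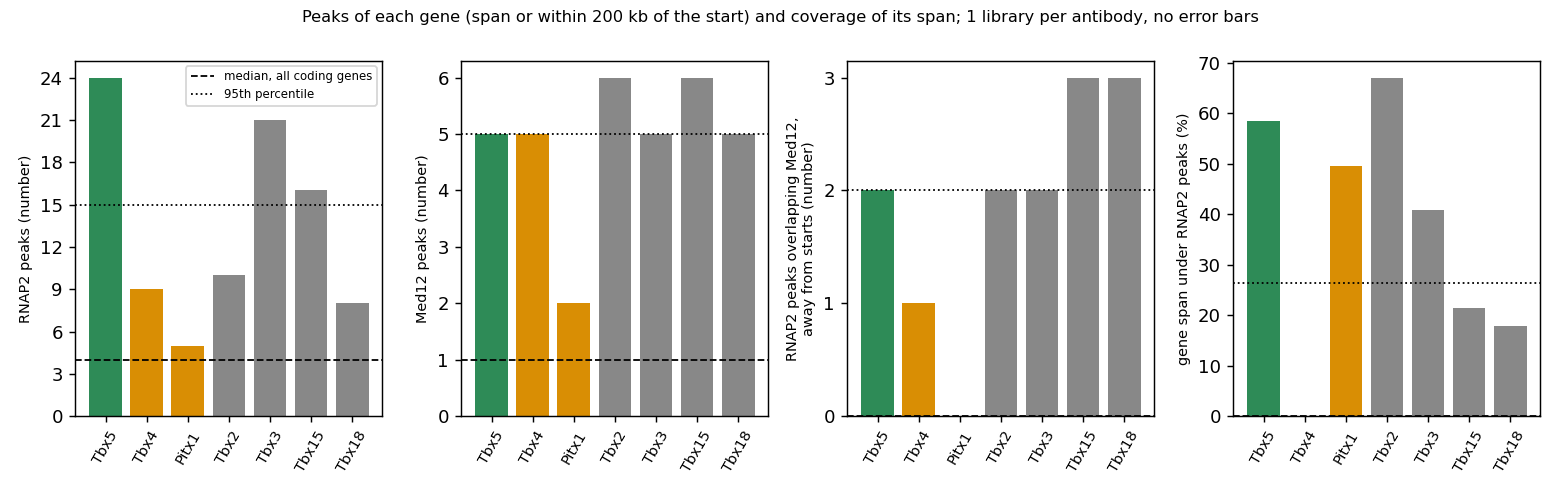
Bars give, for each of the 7 genes, the number of RNAP2 peaks, of Med12 peaks and of RNAP2 peaks overlapping a Med12 peak away from starts, and the percentage of the gene span under RNAP2 peaks. Green is the forelimb gene, orange the hindlimb genes and grey the other 4, the lines are the median and the 95th percentile over 22367 protein-coding genes, and there are no error bars because each antibody has 1 library. Tbx5 has the most RNAP2 peaks (24), Tbx4 has 0% of its span covered, and the Med12 counts lie between 2 and 6.

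Neighbouring genes shared most of these peaks. Tbx3 and Tbx5 shared 20 RNAP2 and 5 Med12 peaks, and Tbx2 and Tbx4 shared 9 and 5. When each peak was given to the protein-coding gene whose start was nearest, Tbx5 kept 20 RNAP2 and 3 Med12 peaks and Tbx3 kept 5 and 2. On the other chromosome, Tbx2 kept 8 RNAP2 and 4 Med12 peaks, while Tbx4 kept 0 and 2. All 9 RNAP2 peaks counted for Tbx4 thus lay nearer to the start of another gene. Tbx15 kept 15 RNAP2 and 6 Med12 peaks, Tbx18 kept 8 and 5, and Pitx1 kept 3 and 0.

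**Figure D2:**
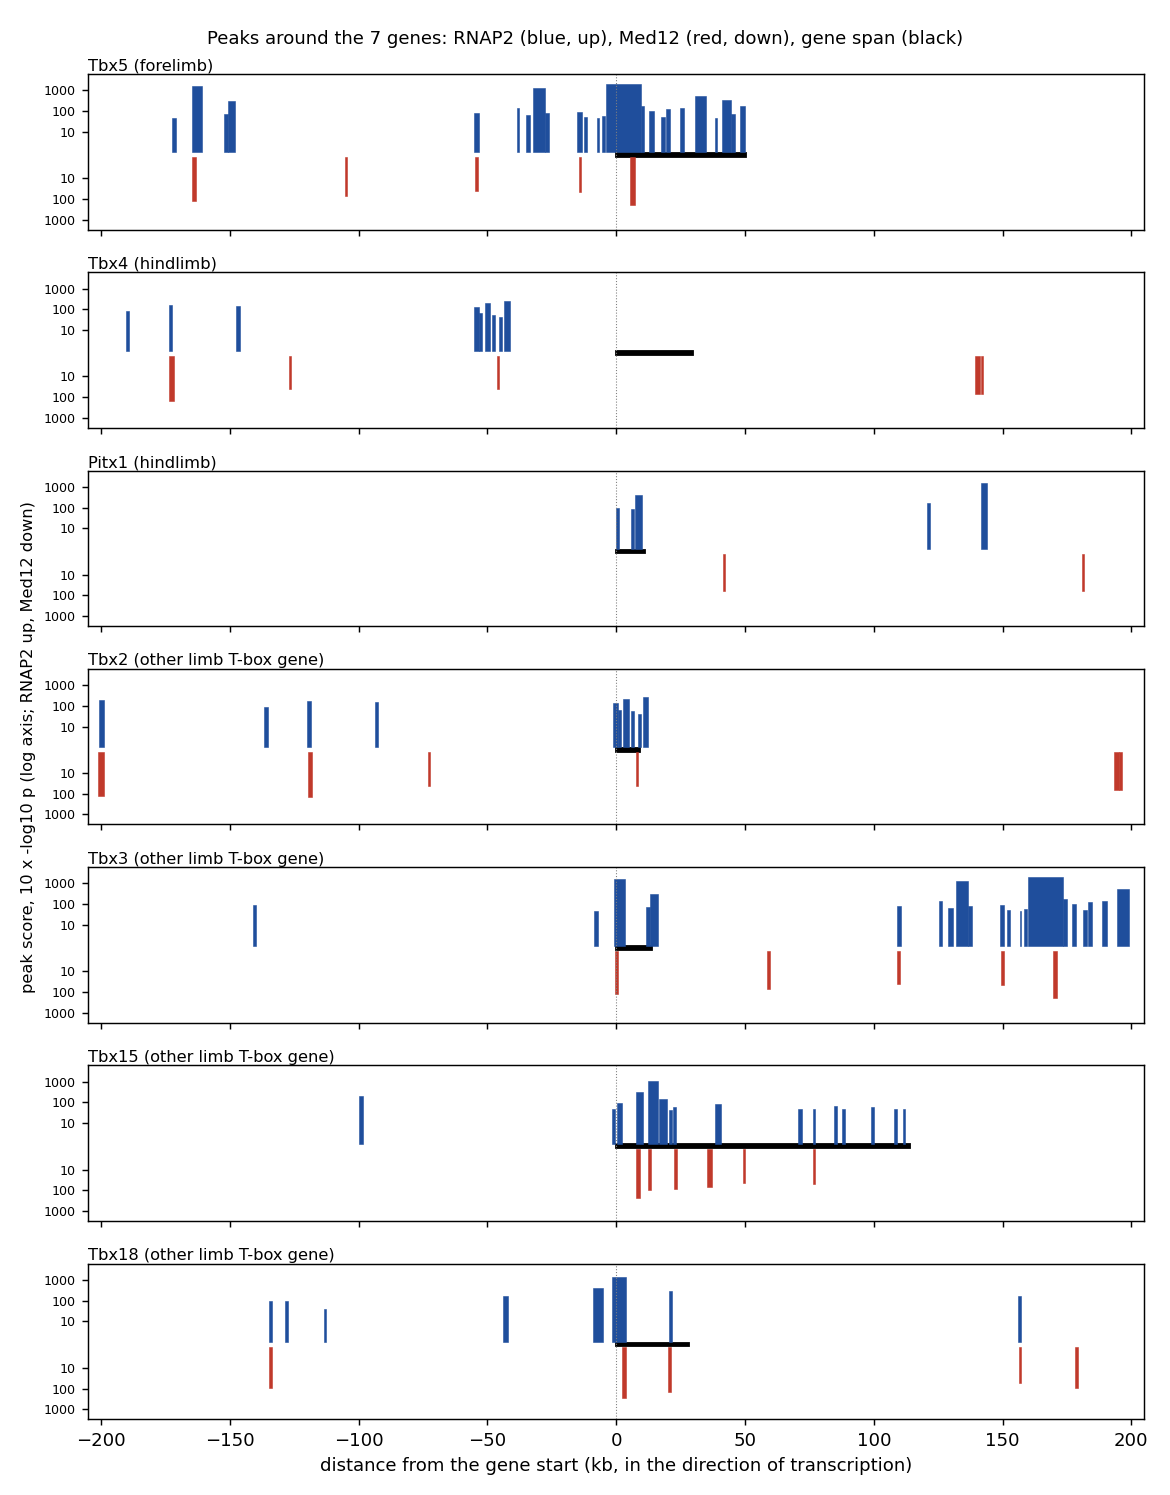
Each panel shows 200 kb on either side of the start of 1 gene, with distance in kb along the x axis in the direction of transcription. Bars mark RNAP2 peaks (blue, upward) and Med12 peaks (red, downward) over their true width, their height is the peak score on a log axis, and the black bar is the gene. Tbx5 has 11 RNAP2 peaks spread over the gene, Tbx4 has 0 peaks of either list over it, and the 3 RNAP2 peaks of Pitx1 sit within the gene.

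An RNAP2 peak lay within 1 kb of an annotated start at 6 of the 7 genes, against 42.2% of all protein-coding genes. Tbx4 was the exception. A Med12 peak lay there at 2 of the 7, Tbx3 and Tbx15, against 9.37% of protein-coding genes. These were also the 2 genes with both peaks at a start, a combination found at 8.66% of protein-coding genes. The RNAP2 peaks at the starts fell into a high and a low range of score, the score being 10 times the negative log10 of the p-value of the peak. Scores were 1987.07 at Tbx5, 1556.92 at Tbx3, 1421.72 at Tbx18 and 1019.99 at Tbx15, but 135.44 at Tbx2 and 99.35 at Pitx1. The RNAP2 list had a median score of 123, so the highest start peak of Pitx1 was below the middle of the list.

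The start of Tbx5 lay in the widest RNAP2 peak of the set. The gene spans chr5:120284672-120335227 on the plus strand, and 1 transcript, Tbx5-201, is annotated there. The values given for the Tbx5 start, including the distance to Med12 and the base composition, rest on this 1 start, and another start would change them. The peak ran from 120280626 to 120294165, a width of 13540 bp that ranked 14th among the 20479 RNAP2 peaks, and its score ranked 754th. It held 4046 bp upstream of the gene, 8331 bp of intron, 653 bp of untranslated exon and 510 bp of coding sequence. Within it, 5518 bp downstream of the start, lay a Med12 peak (120290190 to 120291862) whose score, 197.5, was the 585th of the Med12 list. This Med12 peak covered 221 bp of coding sequence and 1452 bp of intron.

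Further RNAP2 peaks covered the body of Tbx5. The gene had 11 RNAP2 peaks over it, which together covered 29547 bp or 58.4% of its length, against a median of 0% and a 95th percentile of 26.4% over protein-coding genes. The widest of them downstream of the start peak ran from 120315220 to 120319581 (4362 bp, score 524.03) and from 120325654 to 120329416 (3763 bp, score 333.87), both in introns. The last RNAP2 peak (120332859 to 120334631, score 180.43) covered coding and untranslated exon and ended 596 bp before the end of the gene. None of these intragenic peaks other than the start peak overlapped a Med12 peak.

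Upstream of Tbx5, a second strong RNAP2 peak lay away from any start of the annotation. It ran from 120252443 to 120257159, was 4717 bp wide (261st of the list), and had a score of 1299.39 (1455th). It ended 27513 bp before the Tbx5 start and overlapped no Med12 peak. RefSeq places a start of Gm5563, a noncoding gene on the opposite strand to Tbx5, at 120257665 in mm9. That start lies under the next RNAP2 peak (120257224 to 120258755, score 79.24). It is also within 1 kb of the end of the 4717 bp peak, so with RefSeq starts neither peak would be away from starts. Another start of Gm5563 is at 120281995, inside the peak over the Tbx5 start. The first site printed above lay between these Gm5563 starts, and is intergenic by GENCODE vM1 alone. Reads of an antisense start and of the coding gene cannot be told apart in a peak list that has no strand.

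Overlap of RNAP2 with Med12 near Tbx5 away from starts was weak. Of the 4 RNAP2 peaks of Tbx5 that overlapped a Med12 peak, 1 was over its own start and 1 over the start of Tbx3. The other 2 were intergenic in the annotation used. The intergenic ones were the site printed first above, where the RNAP2 peak from 120269513 to 120271281 scored 90.76 and the Med12 peak 45.07, and a site from 120229582 to 120231354 with scores of 81.77 and 40.1. The Med12 scores of both were below the median of the Med12 list, 56.8, and below 50, the score of a p-value of 1e-05, so that 0 such sites were left at that threshold. In the 149938 bp between the end of Tbx3 and the start of Tbx5, 9 RNAP2 and 3 Med12 peaks lay entirely between the genes, and these 2 sites were the overlaps among them.

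**Figure D3:**
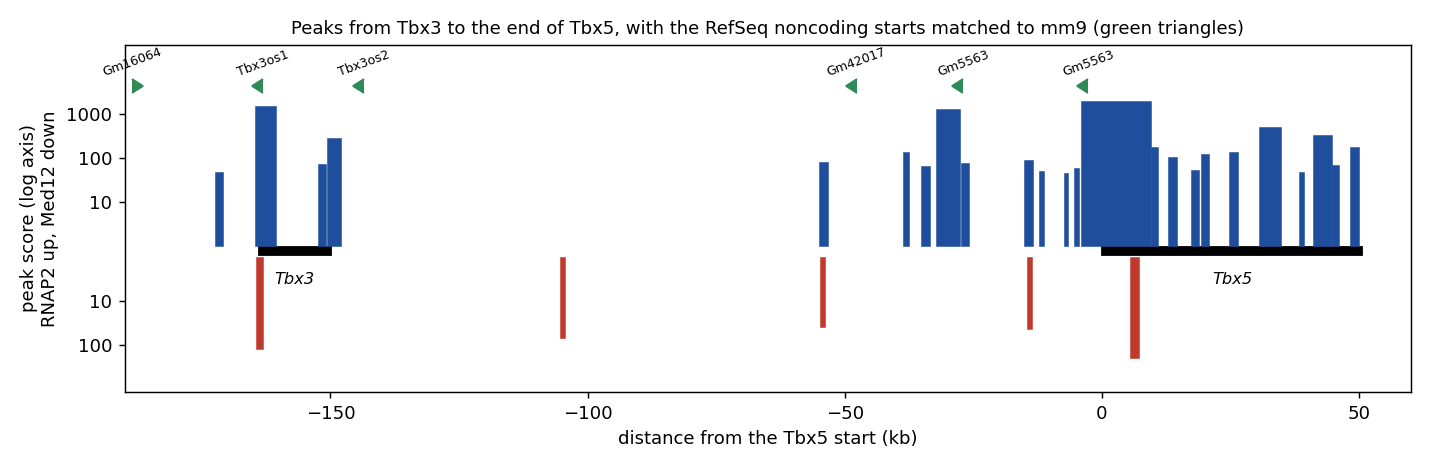
The region from Tbx3 to the end of Tbx5, with distance from the Tbx5 start in kb on the x axis and the peak score on a log y axis, RNAP2 upward in blue and Med12 downward in red. Black bars are the genes and green triangles are noncoding RefSeq starts placed in mm9 by sequence match, pointing in the direction of transcription. The 13540 bp peak over the Tbx5 start and the 4717 bp peak 27513 bp upstream of it are the widest blue blocks, and the Med12 peaks that overlap RNAP2 between the genes are the lowest red bars.

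Tbx4, the T-box gene of the hindlimb, had no peak of either list over its span. The gene lies at chr11:85699924-85729599 on the plus strand, with 3 annotated starts, at 85699924, 85703565 and 85710267. The nearest RNAP2 peak to any of them was 41346 bp away and the nearest Med12 peak 45508 bp away. All 9 RNAP2 peaks in its window lay upstream, from the Bcas3 gene through Tbx2. On the downstream side there were 2 Med12 peaks, from 85839378 to 85841239 (score 68.37) and from 85841413 to 85842414 (score 69.31). They lay in intergenic sequence, overlapped no RNAP2 peak, and were 139454 bp and 141489 bp from the first Tbx4 start.

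Pitx1, the homeobox gene of hindlimb identity, had 3 RNAP2 peaks over it, with scores below the list median at both starts and above it between the starts and the 3′ end. It lies at chr13:55926415-55937553 on the minus strand, with 2 annotated starts. A peak at 55936322 to 55937539, of score 99.35, ended 14 bp from the start of Pitx1-002 at 55937553. Another (55930532 to 55931962, score 88.69) lay 824 bp from the start of Pitx1-001 at 55932786. The highest of the 3 was away from both starts, at 55927529 to 55930402, with 680 bp of coding sequence and 2194 bp of intron, a width of 2874 bp and a score of 422.22 (4589th). Together they covered 49.6% of the gene.

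No Med12 peak lay at Pitx1 or overlapped any RNAP2 peak of its window. The nearest Med12 peak to a start was 36629 bp away, from 55895178 to 55896157 in an intron of Catsper3 (score 60.02), and the other, in Ddx46 at 55755959 to 55756553, scored 60.76. The other RNAP2 peaks in the window covered the starts of neighbouring genes, B230219D22Rik (score 1509.8) and Txndc15 (score 162.09). By the 200 kb rule, Pitx1 was the member without any overlap of the lists away from starts. In bulk chromatin, binding in fewer cells and less binding per cell cannot be told apart, so these peaks do not say how many forelimb cells carried RNAP2 at Pitx1.

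The forelimb gene and the hindlimb genes differed in the number of RNAP2 peaks in the window, 24 at Tbx5, 9 at Tbx4 and 5 at Pitx1. With the nearest start alone these were 20, 0 and 3. The genes also differed in the score of the start and, for Tbx4, in the coverage of the gene. Tbx5 had 58.4% of its span under RNAP2 peaks and a start score of 1987.07. Pitx1 had nearly as large a share covered (49.6%) at a start score of 99.35, and Tbx4 had none. The share depends on gene length, with 5523 of 11139 bp covered at Pitx1 and 29547 of 50556 bp at Tbx5. The 3 genes were alike in lacking a Med12 peak within 1 kb of a start. Away from starts, overlapping RNAP2 and Med12 peaks numbered 2 for Tbx5, 1 for Tbx4, at a site nearest to Tbx2, and 0 for Pitx1. The median for protein-coding genes was 0 and the 95th percentile was 2.

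Tbx2, which encodes a repressor of the limb margins, had 5 RNAP2 peaks from its start to its 3′ end, with scores of 42.59 to 201.68. It lies at chr11:85646053-85655450 on the plus strand, and 67.1% of it was under RNAP2 peaks, the largest share of the 7 genes. Tbx2 is also the shortest of them, at 9398 bp. The peak over the start (85644919 to 85646616, score 135.44) also covered both annotated starts of 2610027K06Rik, which could not be separated from it. A peak from 85646793 to 85647990, score 64.17, lay just downstream. The highest score in or next to the gene was 260.43, for a peak from 85656403 to 85658578 beyond its 3′ end. A Med12 peak from 85653749 to 85654416 in the gene scored 40.97 and overlapped no RNAP2 peak.

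Sites shared by both proteins near Tbx2 and Tbx4 lay in introns of Bcas3, the next gene upstream. The RNAP2 peak from 85526175 to 85527573 (score 168.05) overlapped a Med12 peak with a score of 147.79, which ranked 1005th of the Med12 list. It was 118480 bp from the Tbx2 start and 172351 bp from the first Tbx4 start. A second site, from 85445410 to 85447038, had an RNAP2 score of 190.82 and a Med12 score of 132.67. It lay 199015 bp from the Tbx2 start, at the edge of the window, and outside that of Tbx4. Between the end of Tbx2 and the start of Tbx4, 44473 bp apart, there was 1 RNAP2 peak and no Med12 peak.

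Tbx3, a second repressor gene of the limb margins, had both proteins at its start. It lies at chr5:120120678-120134733 on the plus strand. The RNAP2 peak from 120119922 to 120124017 was 4096 bp wide with a score of 1556.92 (1122nd) and covered the starts of Tbx3-201, Tbx3-002 and Tbx3-001, as well as that of the antisense transcript Gm2301-003. A Med12 peak from 120120162 to 120121459, score 126.36, lay in it, over untranslated exon and the upstream flank. An RNAP2 peak from 120133923 to 120136782, score 292.11, covered the 3′ end, and 40.9% of the gene was under RNAP2 peaks. Upstream of the start only 2 RNAP2 peaks lay in the window, with scores of 48.33 and 88.93.

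Tbx15, a gene of limb and skin mesenchyme, held all 6 of its Med12 peaks within the gene. It lies at chr3:99044304-99158182 on the plus strand, 113879 bp long, and 14 of its 16 RNAP2 peaks were over it, covering 21.5%. The protein-coding transcript Tbx15-001 starts at 99057683, inside an RNAP2 peak from 99056550 to 99060465 (score 1019.99, 1990th) that overlapped a Med12 peak of 96.64. At the noncoding Tbx15-002 start the RNAP2 peaks on either side scored 49.31 and 91.06. The strongest shared site lay between these starts, in the intron, where an RNAP2 peak from 99051908 to 99054648 (310.66) overlapped a Med12 peak (99051970 to 99053681) that scored 234.53, the 421st of its list. The other 2 shared sites were lower, with RNAP2 and Med12 scores of 58.6 and 83.87 (99066391 to 99067615) and of 46.65 and 51.87 (99120578 to 99121634). The 1 RNAP2 peak outside the gene that was not near its start covered the starts of Wars2, with a score of 195.3.

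Tbx18, a close relative of Tbx15 in sequence, had the highest Med12 score of the set. It lies at chr9:87597635-87626095 on the minus strand. The RNAP2 peak over the start ran from 87622106 to 87627744, 5639 bp wide, with a score of 1421.72 (1276th). Inside it, 2243 bp downstream of the start, was a Med12 peak (87622290 to 87623852) that scored 284.66, the 293rd of 10634, and of which 1552 bp were intron and 11 bp coding sequence. Tbx5 and Tbx18 thus both had a Med12 peak inside the RNAP2 peak over the start but beyond 1 kb of the start itself.

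Around Tbx18 there were 3 shared sites away from starts. The highest was in an intron, where an RNAP2 peak from 87604599 to 87605714 (score 295.09) overlapped a Med12 peak with a score of 147.24. The others lay 155978 bp downstream of the start (164.64 for RNAP2 and 55.89 for Med12) and 133554 bp upstream (97.62 and 89.63), both intergenic. An upstream RNAP2 peak from 87631256 to 87634998, 3743 bp wide with a score of 404.0, overlapped no Med12 peak, and RefSeq places the start of the noncoding gene Gm36767 inside it, at 87634219. Tbx18 was the only protein-coding gene with a start in its window, and all its peaks were nearest to it.

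Over the 7 genes, 14 of the 64 RNAP2 peaks, or 21.9%, overlapped a Med12 peak, against 21.7% of the whole RNAP2 list. In the other direction, 14 of the 24 Med12 peaks, or 58.3%, overlapped an RNAP2 peak, against 42.7% of the whole Med12 list. The share of RNAP2 peaks was therefore close to that of the list, and the share of Med12 peaks, over 24 peaks, was higher. Both numbers are descriptions of single libraries. At least 1 RNAP2 peak overlapping Med12 away from starts was found for 6 of the 7 genes, all but Pitx1, against 22.8% of protein-coding genes. Because of the shared windows, the sites behind these 6 genes numbered 10. The 22.8% of protein-coding genes was computed for the 200 kb rule alone, and a wider window can only raise that share. The counts under other settings therefore have no share beside them. The count of genes rested on the settings. It was 4 of 7 at a score of at least 50, where Tbx5 and Tbx3 also had none, 4 of 7 at a score of at least 100, 3 of 7 within 100 kb, where Tbx4, Tbx2 and Tbx3 also had none, 4 of 7 with the nearest start alone, and 7 of 7 within 500 kb.

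The RNAP2 peaks of these genes lay away from starts more often than the list as a whole, at 79.7% against 52.2%. For Med12 the shares were 87.5% and 80.6%. The windows of the 7 genes held 1 to 5 protein-coding starts each, and windows of other genes were not compared for these shares. The RNAP2 peaks away from starts were uneven among the genes, with 22 for Tbx5, 19 for Tbx3 and 12 for Tbx15. Tbx2 had 8, Tbx4 and Tbx18 had 7 each, and Pitx1 had 1, a peak shared by neighbours being counted for both. RNAP2 scores were lower than in the whole list, with a median of 95.1 against 123 and 46.9% against 56.7% at 100 or more. The whole list holds a larger share of peaks at starts, and scores were not compared among peaks away from starts alone. Med12 scores were higher, with a median of 70.0 against 56.8 and 29.2% against 18.5% at 100 or more. Median widths were 1455 bp for RNAP2, against 1328 bp, and 1072 bp for Med12, against 972.5 bp. A score depends on the depth of the library and the width of the peak, so scores were not compared between the lists.

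**Figure D4:**
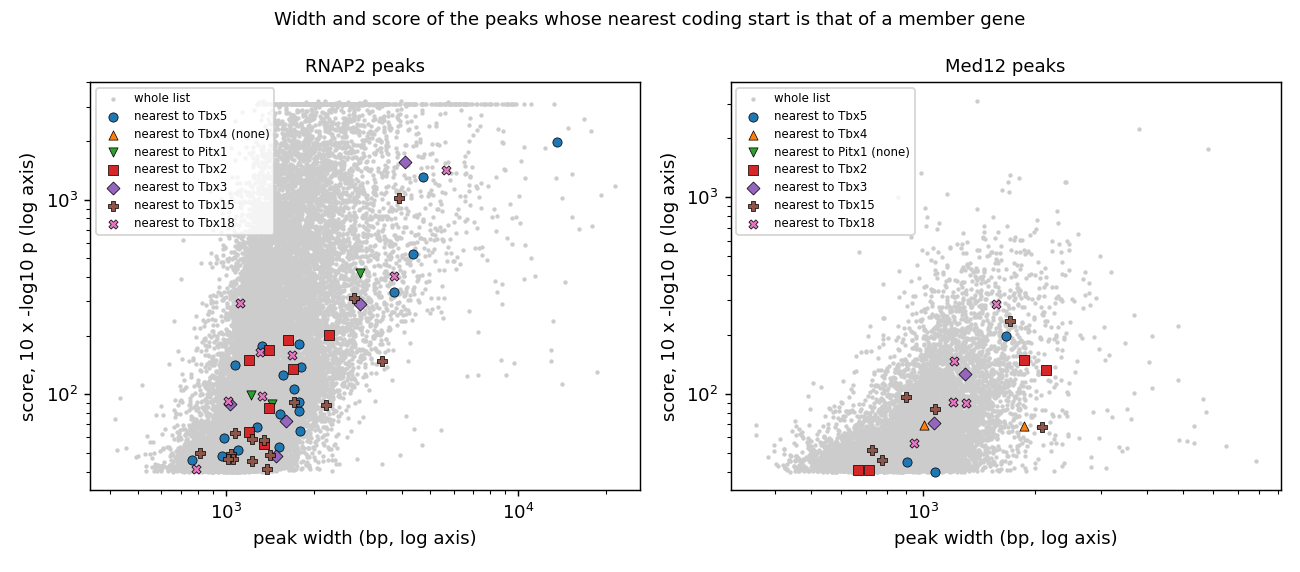
Peak width in bp against peak score, both on log axes, for RNAP2 (left) and Med12 (right), with the whole list in grey and coloured symbols for the peaks whose nearest protein-coding start is that of a member gene. The 13540 bp RNAP2 peak over the Tbx5 start stands at the right edge of the members and the start peaks of Tbx3, Tbx18 and Tbx15 and the upstream Tbx5 peak lie with it above 1000, whereas no Pitx1 or Tbx2 peak exceeds 422.22. Tbx18 and Tbx15 carry the highest Med12 scores, 284.66 and 234.53.

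The base composition of the starts differed among the genes. In the 1000 bases around the annotated start of Tbx5 the observed to expected ratio of CpG was 0.12 with 52.0% GC. It was 0.76 at Tbx2, 0.75 at Tbx18, 0.76 at the coding start of Tbx15, 0.63 and 0.73 at the starts of Pitx1, and 0.82 to 0.94 at the first 3 starts of Tbx3. The Tbx4 starts had 0.51, 0.50 and 0.21. The noncoding starts of Tbx15 had 0.36, at the start with RNAP2 peaks on either side, and 0.13, and the other starts of Tbx3 had 0.47, 0.68 and 0.67, so starts poor in CpG were found with and without an RNAP2 peak.

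Short motifs were searched on both strands in the 300 bases around each peak centre. They were GGTGTGA, found in T-box sites, TAATCC, bound by PITX factors, TCGTAAA, bound by HOX13 factors, and GACCACCC, bound by GLI factors. None occurred in the 6 sites or the 2 promoter stretches printed above. Among the 64 RNAP2 centres of the 7 genes, GGTGTGA occurred in 4 and TAATCC in 7, against 3.48% and 7.61% of all RNAP2 centres. Among the 24 Med12 centres they occurred in 0 and 3, against 3.76% and 10.4% of all Med12 centres. TCGTAAA and GACCACCC occurred in 0 of the members' centres, against 0.947% and 0.820% of RNAP2 centres and 1.33% and 0.630% of Med12 centres. Over RefSeq promoters of 250 bases, the shares in the order above were 3.33%, 6.25%, 0.478% and 0.703%.

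Some members held these letters at peaks described above. TAATCC was in the highest RNAP2 peak of Pitx1 (score 422.22), in the Catsper3 intron Med12 peak of its window, in the RNAP2 peak over the coding start of Tbx15 and in the intragenic Tbx5 peak with a score of 333.87. GGTGTGA was in the RNAP2 peak of 310.66 at the shared site of Tbx15, but not in the Med12 centre printed above. Both motifs were in the peak beyond the 3′ end of Tbx2 (260.43) and in an intergenic peak upstream of Tbx5 (120246032 to 120247105, score 141.23). A match is a run of letters, and binding of these factors was not measured.

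Other T-box genes served as a comparison within the family. Of 11 (T, Tbx1, Tbx6, Tbx10, Tbx19, Tbx20, Tbx21, Tbx22, Tbr1, Eomes and Mga), 5 had an RNAP2 peak at a start and 1, Mga, had a Med12 peak there. These counts were near the shares over all protein-coding genes, 42.2% and 9.37%. Mga, which encodes a protein with a T-box and a MAX-like domain, scored 853.27 for RNAP2 and 47.85 for Med12. The other 4 start peaks scored 67.92 at Tbx6, 129.62 at Tbx20, 78.15 at Tbr1 and 95.39 at Eomes, against 99.35 at Pitx1 and 135.44 at Tbx2. The medians of this list were 6 RNAP2 peaks, 2 Med12 peaks and 0 overlaps away from starts, against 10, 5 and 2 among the 7 members.

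Of 7 other genes of limb identity and limb start, 5 had an RNAP2 peak at a start and 0 had a Med12 peak there. Over all protein-coding genes the shares were 42.2% and 9.37%. Isl1, a hindlimb progenitor gene that acts with Pitx1 and Tbx4, had a start score of 1110.05 and 48.7% of its span covered. Fgf10, the growth factor gene that Tbx5 and Tbx4 activate, scored 99.97. Hoxc4, Hoxc5 and Hoxc10 had start peaks with scores of 78.72, 126.95 and 57.57. Hoxc11 and Sall4 had no RNAP2 peak at a start. Of the 5 genes listed as hindlimb markers (Tbx4, Pitx1, Isl1, Hoxc10 and Hoxc11), 3 had an RNAP2 peak at a start and 0 a Med12 peak.

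Marker genes of the tissue were read the same way, beside the 42.2% of all protein-coding genes that had an RNAP2 peak at a start. All 9 genes of distal limb mesenchyme and all 4 of the proximal limb had an RNAP2 peak at a start, as did 2 of 3 cartilage genes. Of muscle genes 1 of 4 (Pax3) had one, and of endothelial genes 1 of 4 (Kdr). The 5 ectoderm, 4 blood and 2 nerve genes had none. Start scores were 105.95 at Meis2, 191.62 at Shox2 and 581.3 at Meis1, against 1095.21 or more at the distal genes. Hoxa11, the other gene of the proximal list, scored 3100.0. The paper describes a little Hoxa11 in the dissected cells, from the future wrist, so it need not mark proximal cells here. The part of proximal, cartilage, Pax3-expressing or endothelial cells in the peaks of the 7 genes was not tested.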

How the data were processed

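RNAP2 and Med12 were measured by ChIP-seq, with 1 library each and an input library, and the labels' stage of E12.5 was used. Per the study's methods, the authors cut 1 base from the start of each read, aligned with Bowtie against mm9, discarded redundant reads and ran MACS 1.4.1 on each library (tools as in the submitters' processing notes). Input is not named as the control in their settings. Each deposited peak carries a MACS score, which is -log10 of its p-value multiplied by 10, and the weakest peaks have a p-value of 0.0001, although the methods give a threshold of 1e-05, which is a score of 50. They hold no counts, so the depth behind a peak is unknown and no interval could be given.

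Genes and starts were those of GENCODE vM1 on NCBIM37, the assembly of mm9. Peaks were assigned and overlapped (at least 1 bp) with Python 3.11.15 and numpy 2.4.6. The overlaps were checked on simulated lists with planted overlaps, and against bedtools 2.31.1 on the deposited lists. A start interval is 1 kb on each side of an annotated start. Repeats were sought with blastn 2.17.0, low-complexity bases masked, and figures drawn with matplotlib 3.10.9. RefSeq promoters (GRCm38.p6) were placed by exact sequence match, which gave 24 starts in the windows.

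The members and lists were chosen with earlier results of these data known. Named were all peaks at member starts, the peak of highest score of each list in each window, and shared sites away from starts with a Med12 score of at least 100 or, failing that, the highest one; other peaks were named after their values were seen. Alternatives were a score of at least 50 or 100, an overlap of at least 50%, windows of 100 and 500 kb, start intervals of 5 kb, coding starts alone, nearest-gene assignment and RefSeq starts. Signal tracks, expression and the other assays of the study were not analysed here. A single gene of a comparison list was left out and is not reported here.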

Additional observations from a re-analysis of the deposited data

How the results depend on the processing

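With 1 library per antibody, the values rest on counts of peaks without a test. No paired analysis was possible because each group has 1 library. Of 135 values (15 counts under 9 alternatives), 97 stayed within 1.5 times the value reported and 38 did not. An overlap of 50% of the shorter peak, start intervals of 5 kb, starts of protein-coding transcripts alone and RefSeq starts, the last chosen after seeing the data, moved 0 counts by that much. The counts of peaks per window do not use these settings, so they could not change under them. Counts of genes with a peak at the start likewise do not use the window, the overlap or the nearest gene. The 97 therefore include values fixed in advance and do not measure how stable the counts are.

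Counts that moved are given in the order Tbx5, hindlimb genes, other 4 genes, which stood at 24, 14 and 55 RNAP2 peaks, 5, 7 and 22 Med12 peaks, and 2, 1 and 10 shared sites away from starts. At a score of at least 100, RNAP2 peaks were 12, 8 and 25 (30 distinct), Med12 peaks 2, 1 and 7 (7 distinct), and shared sites away from starts 0 for Tbx5 and 4 for the other 4 genes. There, 7 RNAP2 peaks overlapped Med12, 4 of them away from starts, and 1 gene, Tbx3, had Med12 at a start. Pitx1 lost both start peaks, and its coverage fell from 49.6% to 25.8%. At a score of at least 50, the p-value threshold of the study's methods, Tbx5 had 3 Med12 peaks and 0 shared sites away from starts.

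Within 100 kb, RNAP2 peaks were 9 for the hindlimb genes and 31 for the other 4, and Med12 peaks 3, 2 and 12. Shared sites away from starts were 6 in all, 0 for the hindlimb genes and 4 for the other 4. Within 500 kb, RNAP2 peaks were 53 and 88 for the hindlimb and other genes (120 distinct) and Med12 peaks 20 and 39 (50 distinct). There, 30 RNAP2 peaks overlapped Med12, 20 away from starts, with 5 for the hindlimb genes and 17 for the other 4. With the nearest start alone, Med12 peaks were 3 for Tbx5 and 2 for the hindlimb genes, RNAP2 peaks 3 and 36 for the hindlimb and other genes, and shared sites 0 for the hindlimb genes. In each case the alternative itself removes or adds peaks. RNAP2 at the start of Tbx4 was absent and that at Tbx5 present under all 9 alternatives, but neither result could have changed. Only the start interval of 5 kb could add a peak at the Tbx4 start, and the nearest was 41346 bp away. The peak over the Tbx5 start scored 1987.07, above both score thresholds.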

Other observations

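Between 200 and 500 kb from a start, overlapping RNAP2 and Med12 peaks away from starts were found for 4 of the genes. The share of protein-coding genes with such a site at this distance was not computed. For Tbx4 it was only the Bcas3 site from 85445410 to 85447038, already counted for Tbx2. Pitx1, which had none within the 200 kb window, had 3 between 200 and 500 kb, all upstream. They lay at 56240212 to 56241437 on chromosome 13 (RNAP2 score 225.1, Med12 score 114.78, centre 303271 bp from the start), at 56390310 to 56391486 in Cxcl14 (226.5 and 184.33, 453345 bp), and at 56422630 to 56423700 (107.26 and 235.52, 485612 bp). The nearest protein-coding start was that of H2afy for the first and of Cxcl14, a chemokine gene, for the others, and the gene that these sites belong to was not measured.

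Tbx18 had 5 such sites. The highest, 254028 bp upstream at 87879233 to 87881014 on chromosome 9, had an RNAP2 score of 612.89 and a Med12 score of 325.46 (219th of the Med12 list), above the Med12 score of any peak within 200 kb of the 7 genes, and its nearest protein-coding start was that of Tbx18. Another, 338066 bp upstream at 87963163 to 87965160 and nearest to Nt5e, scored 415.79 and 226.49. Tbx15 had 2, of which the one 249181 bp upstream of its first start (98794313 to 98795933, nearest to Hao2) scored 303.08 and 285.53. These sites were chosen after their values were seen.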
